A study of Mus musculus with 2 samples.

Results

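The genes for mitochondrial ribosomal proteins were taken as the coding genes of the mouse RefSeq table (mm10, GRCm38.p6) whose symbol is Mrpl or Mrps followed by a number. There were 78 of them among 21887 coding genes, 49 named for the large and 29 for the small subunit. Open chromatin at their ends was compared between 1 ATAC-seq library of AB22 cells with a control hairpin (shCTRL) and 1 with a hairpin against Hmgb1 (shHMGB1). AB22 is a mouse malignant mesothelioma line, a tumour of the lining of the chest and belly, and ATAC-seq uses the transposase Tn5 to cut and tag accessible DNA. Both lines were made with pTRIPZ lentivirus, from which doxycycline induces the hairpin, at a multiplicity of infection of 20. Both were selected with 4 µg/mL puromycin, kept under 5% oxygen as the label has it, and used 7 to 10 days after 1 µM doxycycline was added. The irradiation field of both samples is blank. HMGB1, the target of the hairpin, is a DNA-bending protein found throughout chromatin, and the study asked how its loss changes nucleosomes. The peak lists hold no RNA, so the silencing of Hmgb1 could not be checked in them.

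The mitochondrial ribosome sits in the matrix and translates the few messages that mitochondrial DNA still encodes, all for membrane subunits of the respiratory chain and the ATP synthase. Its own proteins are all encoded in the nucleus, made in the cytosol and imported, so that many scattered nuclear genes have to be active together for a ribosome to be built. Some descend from the proteins of the bacterial ribosome, and others were added in the mitochondrial lineage. Such genes are active in nearly every cell type and typically have promoters rich in CpG without a TATA box, often with sites for nuclear respiratory factor 1 (NRF1), for ETS family factors such as GABP, and for YY1. Subunits are given here by symbol, although the products of Mrps30 and Mrps18a are found in the large subunit, and Mrps36 is also known as a subunit of the oxoglutarate dehydrogenase complex.

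A gene end was called open where a listed summit lay within 1 kb of either annotated end of the gene. The height of a summit is its pileup, taken here as the number of fragments that overlap it, which was recovered as a whole number from the deposited fold. Whether a unit of pileup is a fragment or a single read is not stated, and the intervals below treat each unit as an independent fragment. The lists held 104336 peaks in shCTRL and 92282 in shHMGB1, and the expected pileup to which each list refers was 2.79 and 1.68 fragments. No summit below 10 and 7 fragments was listed, and the files state no read totals. With 1 library per group no difference between the lines can be set against a replicate spread, so no p-value is given, and the 95% intervals cover counting error only. Of 8 mesothelial marker genes 2 were open in both libraries, Msln and Pdpn, while 4 of them, Upk3b, Krt19, Krt8 and Krt18, had no listed end summit in either. Of 3 fibroblast markers 2 were open in both, of 5 leukocyte markers 1 (Spi1, with 14 and 10 fragments), and of 4 endothelial and 3 epithelial markers none. Over all coding genes 52% were open in both. Open in shCTRL alone were 2 mesothelial, 2 leukocyte, 2 endothelial markers and 1 epithelial marker, against 5.79% of all coding genes. Open in shHMGB1 alone were 1 leukocyte and 1 fibroblast marker, against 1.73%.

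Most of the mitochondrial ribosomal protein genes had an open end in both libraries. This held for 72 of 78 (92.3%), against 52% of all coding genes, for 45 of 49 large subunit genes and for 27 of 29 small subunit genes. Genes with a bacterial counterpart were open in both libraries in 43 of 47 cases, and those without one in 29 of 31. Among 84 genes of the cytosolic ribosome 77 (91.7%) were open in both. Summits of the 2 libraries were matched only where they lay within 150 bp of each other, so matched summits are close by selection. The matched summits lay a median of 13.5 bp apart, against 14 bp over all coding genes, and 40 of 72 pairs (55.6%) lay within 20 bp, against 60.4%. The 72 genes rest on 71 distinct pairs of summits, since Mrpl46 and Mrps11 share theirs.

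Most of the summits lay at the start of the genes. Of the 78 genes 69 have an entry with strand in the RefSeq promoter table, and 64 of those had matched end summits. In each library 51 of 64 (79.7%) of these summits lay within 150 bp of an annotated start site, against 62.7% in shCTRL and 62.1% in shHMGB1 over all coding genes. The median position was 32.5 bases before the start in shCTRL and 36 bases before it in shHMGB1, against 42 bases in each library over all coding genes. Of the 64 summits 43 (67.2%) and 47 (73.4%) lay upstream, against 68.7% and 68.9%, so these shares were near those of all coding genes. At 4 genes, Mrpl2, Mrpl22, Mrpl36 and Mrpl58, the matched end summits lay more than 1 kb from the gene's own start, at its other end, so the values for these ends are not those of the promoter.

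The 180 bases from 150 before the start site to 30 from it on are shown for 10 genes on which the results below turn, 5′ to 3′ along the gene, from RefSeq (GRCm38.p6). They are the highest start summit and the highest end summit, a start with repeated NRF1 matches, the divergent start of Mrps11 and Mrpl46, a start with both an ETS and a YY1 match, the 2 genes with the highest and the 2 with the lowest ratio between the libraries at their starts, and the gene with no peak. Capitals mark exact matches on either strand to CCGGAAG (ETS), GCATGCGC (NRF1) and AAGATGGCG (YY1).
Mrpl17 (chr7:105811058-105811237, minus strand): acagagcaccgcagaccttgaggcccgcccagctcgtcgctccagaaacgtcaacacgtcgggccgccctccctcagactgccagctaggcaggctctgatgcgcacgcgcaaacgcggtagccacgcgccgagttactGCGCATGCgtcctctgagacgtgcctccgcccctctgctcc
Mrpl18 (chr17:12916062-12916241, minus strand): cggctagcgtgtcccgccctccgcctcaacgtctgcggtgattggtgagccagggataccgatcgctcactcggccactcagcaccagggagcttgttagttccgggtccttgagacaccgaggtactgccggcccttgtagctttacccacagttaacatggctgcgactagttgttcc
Mrpl32 (chr13:14613008-14613187, minus strand): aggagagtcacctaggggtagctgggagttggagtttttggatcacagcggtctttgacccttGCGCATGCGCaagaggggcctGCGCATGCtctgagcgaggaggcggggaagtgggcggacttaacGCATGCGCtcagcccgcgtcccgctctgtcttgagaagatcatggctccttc
Mrps11 (chr7:78782981-78783160, plus strand): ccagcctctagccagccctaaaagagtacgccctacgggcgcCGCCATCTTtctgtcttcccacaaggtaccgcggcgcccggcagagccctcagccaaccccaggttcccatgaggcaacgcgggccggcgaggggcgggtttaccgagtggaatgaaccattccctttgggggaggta
Mrps27 (chr13:99344636-99344815, plus strand): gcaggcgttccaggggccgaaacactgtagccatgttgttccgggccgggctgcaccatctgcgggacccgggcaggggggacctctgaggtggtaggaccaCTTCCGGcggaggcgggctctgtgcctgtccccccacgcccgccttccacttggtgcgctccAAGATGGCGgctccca
Mrpl52 (chr14:54426759-54426938, plus strand): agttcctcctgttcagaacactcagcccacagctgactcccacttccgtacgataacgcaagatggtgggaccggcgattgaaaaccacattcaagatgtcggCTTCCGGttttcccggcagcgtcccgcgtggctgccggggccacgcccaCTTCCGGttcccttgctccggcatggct
Mrps21 (chr3:95871485-95871664, minus strand): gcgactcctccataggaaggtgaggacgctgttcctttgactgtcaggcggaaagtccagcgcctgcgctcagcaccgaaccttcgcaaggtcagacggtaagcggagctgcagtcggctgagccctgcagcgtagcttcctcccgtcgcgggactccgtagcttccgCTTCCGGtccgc
Mrpl36 (chr13:73330859-73331038, plus strand): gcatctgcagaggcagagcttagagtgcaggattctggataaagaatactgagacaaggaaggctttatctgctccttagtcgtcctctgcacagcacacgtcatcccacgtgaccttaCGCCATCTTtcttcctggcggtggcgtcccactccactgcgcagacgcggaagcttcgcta
Mrpl58 (chr11:115403602-115403781, plus strand): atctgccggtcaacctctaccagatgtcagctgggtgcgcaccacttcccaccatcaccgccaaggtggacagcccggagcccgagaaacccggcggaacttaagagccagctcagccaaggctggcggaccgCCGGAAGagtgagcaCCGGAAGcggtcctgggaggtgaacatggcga
Mrpl50 (chr4:49521054-49521233, minus strand): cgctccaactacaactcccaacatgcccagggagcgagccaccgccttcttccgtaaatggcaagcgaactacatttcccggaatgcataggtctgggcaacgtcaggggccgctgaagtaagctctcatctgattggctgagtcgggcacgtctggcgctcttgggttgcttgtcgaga
In Mrpl17 the NRF1 match begins 11 bases before the start, and its ETS match lies outside the stretch shown. Mrpl32 has 4 NRF1 matches, beginning between 87 and 22 bases before the start, and the first 2 of them overlap as the 2 strands of one palindrome. In Mrps27 the YY1 match begins at base 14 after the start, and in Mrpl36 the same letters lie on the opposite strand, from 31 bases before the start. Mrpl58 has 2 ETS matches, which begin 17 and 2 bases before the start. The stretch of Mrpl50 holds none of the 3 motifs, and neither does that of Mrpl18, whose ETS match lies outside it.

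Across the promoters, letters of the factors known for nuclear genes of mitochondrial proteins were common. The search covered the 300 bases from 250 before to 50 after each start, on both strands. CCGGAAG, the core of ETS sites, was found in 24 of 69 genes (34.8%), against 12.1% of 17492 coding genes and 19.5% of the 9171 of these with an end open in both libraries. GCATGCGC, part of the NRF1 site, was found in 8 (11.6%), against 3.62% and 5.60%. AAGATGGCG, the YY1 site, was also found in 8 (11.6%), against 1.96% and 3.37%. At least 1 of these 3 motifs was present in 34 of 69 (49.3%), against 16.4% of all coding genes and 26.3% of open ones. At least 2 were present in 6 genes (8.70%), against 1.23% and 2.17%. These 6 are Mrpl17, Mrpl22, Mrpl33 and Mrps18b with ETS and NRF1 matches, and Mrps18a and Mrps27 with ETS and YY1 matches.

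The 3 motifs differed in where they lay. YY1 matches began at a median of 18.5 bases after the start, and ETS and NRF1 matches at medians of 16.5 and 49.5 bases before it. The YY1 matches of Mrpl36 and Mrps11 began 31 and 108 bases before the start, and the other YY1 matches began inside the transcript. NRF1 matches were in 7 of 43 large and 1 of 26 small subunit genes, ETS matches in 14 and 10, and YY1 matches in 4 and 4, and these counts were not tested. The other motifs had shares near or below those of open promoters, with the ZNF143 letters the one exception. Letters of the SP family of factors, CCCGCCC, were in 42.0% of the members, against 49.1% of open coding promoters. For the NFY factor the share with CCAAT was 39.1%, against 39.8%. The core promoter element TATAAA was present in 5.80%, against 6.77%. The E-box CACGTG was present in 7.25% of the members, against 10.3% of open promoters. For CREB factors the palindrome TGACGTCA was present in 2.90%, against 3.57%. Letters of the ZNF143 site, ACTACAA, were in 7.25% of the members, against 4.59%, and all 5 of these genes are of the large subunit. No sites of different motifs overlapped in the members. The median base content was 58.3% GC, below the 61.3% of open coding promoters, and the observed over expected CpG ratio was 0.820, above their 0.779. A match is only these letters in this window, and binding was not measured.

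**Figure D1:**
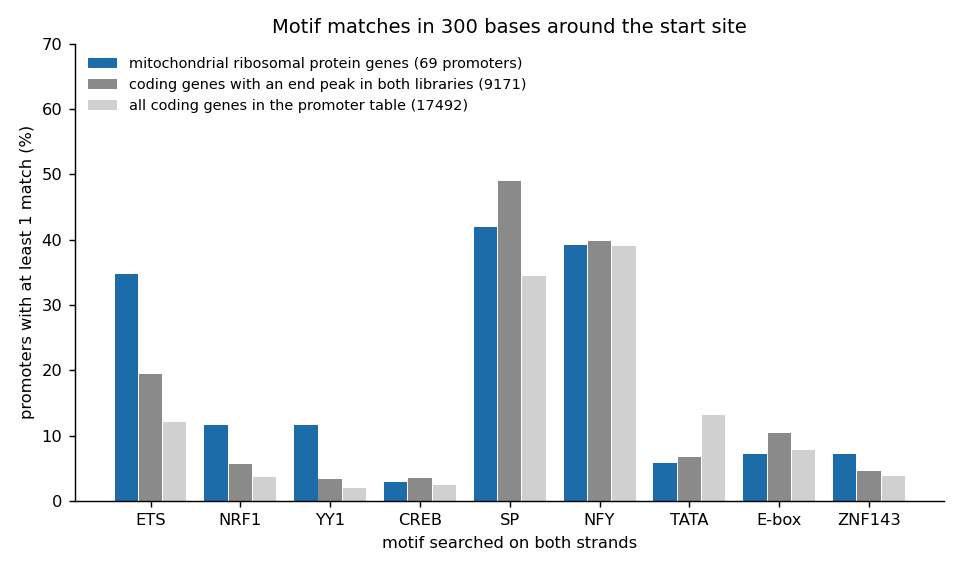
Share of promoters (percent, vertical axis) with at least 1 exact match to each of 9 motifs (horizontal axis), for 69 mitochondrial ribosomal protein genes, 9171 coding genes with an end open in both libraries, and all 17492 coding genes of the promoter table. The member bars stand above both others for ETS (34.8%), NRF1 (11.6%) and YY1 (11.6%), and near or below those of open genes for SP and NFY.

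Summit heights of genes with and without a match are given here as medians, and their differences were not tested. Over the 64 members with a promoter entry and matched summits, the median pileup with an ETS match (22 genes) was 44.5 fragments in shCTRL and 43 in shHMGB1, and without one 43.5 and 36. With an NRF1 match (8 genes) it was 62.5 and 59, and without one 43 and 40. With a YY1 match (8 genes) it was 37.5 and 38, and without one 43.5 and 41. Over all coding genes in shCTRL the medians were 51 with an ETS match and 43 without, 48 and 44 for NRF1, and 45 and 45 for YY1. Of these 3 motifs the largest gap there was that for ETS, and among the members it was that for NRF1. For NFY and ZNF143 letters the medians over all coding genes in shCTRL were 53 with and 40 without, and 54 and 44. Among the members in shCTRL they were 44 and 43, and 34 and 45. These pileups are of end summits, which at Mrpl22, Mrpl36 and Mrpl58, and in shCTRL also at Mrpl2, lie at the end opposite to the start. The ranges within each class were wide, as the levels of single genes below show.

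The open ends varied widely in height around the level of a typical open gene. The highest end summit of the 72 genes had a median of 43.5 fragments in shCTRL (quartiles 28.75 and 65) and 41 in shHMGB1 (24.75 and 61.25). All coding genes open in both libraries had 43 and 37. The members ranged from 13 to 180 fragments in shCTRL and from 7 to 176 in shHMGB1, and 36 and 38 of the 72 lay above the median open coding gene. Small subunit genes had medians of 45 and 45, and large subunit genes 40 and 37. Genes without a bacterial counterpart had 49 and 46, and those with one 41 and 34.

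By the sum of both libraries, the highest large subunit genes were high in each. Mrpl17, for a conserved protein near the end of the polypeptide tunnel (chromosome 7, 105803782 to 105811087), had 180 fragments in shCTRL (95% interval 154.7 to 208.3) and 176 in shHMGB1 (151.0 to 204.0). Its pileup was at or above that of 98.2% and 97.9% of open coding genes. Mrpl41, a mitochondrion-specific protein, had 133 and 123 fragments, and Mrpl47, at the tunnel exit, 117 and 127. Mrpl40, of the central protuberance, had 110 and 111. Mrpl32, whose product is trimmed by the m-AAA protease before it joins the ribosome, had 92 and 65. At each of these 5 genes the Poisson intervals of the 2 libraries overlap. Each pileup is on the scale of its own library, so an overlap is no measure of the ratio between libraries. The ratio of Mrpl47 at matched summits, given below, has an interval above the median coding gene.

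The lowest large subunit genes were near the smallest pileups that the lists contain. Mrpl10, which anchors the L7/L12 stalk that recruits translation factors, had 13 and 11 fragments. Mrpl55 had 16 and 14, and Mrpl33 had 19 and 11. Mrpl22, which lines the tunnel, had 17 and 7 at the end opposite to its start. The other stalk genes lay below the member medians of 43.5 and 41 fragments, though Mrpl54 was within the member quartiles in both libraries. Mrpl12, whose product is the mobile stalk protein itself, had 25 and 20 fragments, Mrpl11 29 and 23, Mrpl53 22 and 26, and Mrpl54 33 and 25. The median of the 5 stalk genes was 25 and 23. The 6 of 7 tunnel exit genes open in both libraries had medians of 49.5 and 44, and the 5 of 6 central protuberance genes 45 and 43.

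Among small subunit genes the highest were Mrps28, with 146 and 142 fragments, and Mrps33, with 126 and 130. Mrps14 and Mrps9, conserved proteins in the head of the subunit, had 121 and 127, and 123 and 98. At each of these 4 genes the Poisson intervals of the 2 libraries overlap, again on the separate scale of each library. The lowest were Mrps24 with 17 and 21 fragments, Mrps18a with 23 and 16, Mrps10 with 25 and 19, and Mrps34 with 27 and 17.

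**Figure D2:**
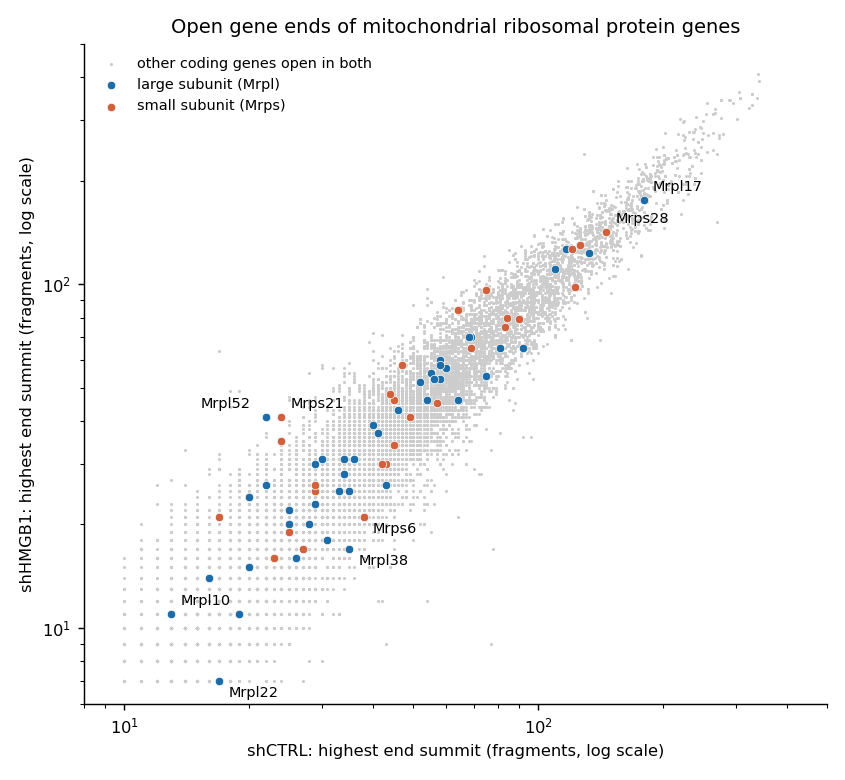
Highest end summit in shCTRL (horizontal, fragments, log scale) and shHMGB1 (vertical, fragments, log scale) for 72 mitochondrial ribosomal protein genes open in both libraries, blue for the large and orange for the small subunit, over all other coding genes open in both (grey). Members spread along the diagonal from Mrpl10 (13 and 11) to Mrpl17 (180 and 176), with Mrpl52 and Mrps21 above it and Mrpl22, Mrpl38 and Mrps6 below it.

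Between the libraries the members moved little against other genes. The ratio of matched pileups, shHMGB1 over shCTRL, was taken relative to the median of 11134 coding genes, whose pileup in shHMGB1 was 0.867 times that in shCTRL. The 72 members had a median log2 ratio of 0.075 (quartiles −0.15 and 0.25), and 43 of them lay above 0. The large subunit median was 0.073 and the small subunit median 0.12. Relative to genes of the same height the member median was 0.054, and relative to genes of the same chromosome 0.056. The 76 cytosolic ribosomal protein genes with matched summits had a median of 0.13. Scaled instead to the expected pileup of each library, the median coding gene lies at 0.52 and the median member at 0.60, and 37 members pass 1.5-fold higher beside 43.2% of coding genes. The ratios below are therefore relative to the median gene and say nothing of a change common to all genes.

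A ratio at least 1.5-fold higher in shHMGB1 was found at 4 of 72 members, against 4.09% of coding genes, and one at least 1.5-fold lower at 3, against 8.52%. The counting interval lay wholly above the median gene at 5 members, against 5.98% of coding genes, and wholly below it at 0 members, against 2.17%. The counts of higher members were near the background share. The counts of lower members were below it, but they are small and were not tested. The 0 became 2 when start sites were used in place of gene ends, as described below.

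The members with the highest ratio were Mrpl52 and Mrps21. Mrpl52, of the central protuberance (chromosome 14, 54426909 to 54429750), had 22 fragments in shCTRL and 41 in shHMGB1, a log2 ratio of 1.10 (0.32 to 1.92). The summit of shHMGB1 lay 34 bases before the start and that of shCTRL 106 bases after it. With summits matched within 50 bp the shCTRL value was 20 and the ratio 1.23 (0.42 to 2.08). Mrps21, a small conserved protein of the small subunit (chromosome 3, 95862634 to 95871514), had 24 and 41 fragments, a ratio of 0.98 (0.22 to 1.77). Its start summits were 56 bp apart, so that matching within 50 bp fell on its other end, with 16 and 12 fragments and a ratio of −0.22. A nucleosome-free region was listed at both genes in shHMGB1 and at neither in shCTRL.

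At 3 taller members the interval also lay above the median coding gene. Mrps22, a mitochondrion-specific small subunit protein, had 64 and 84 fragments, with a ratio of 0.60 (0.11 to 1.09). Mrpl47 had 98 and 127 at its matched summits, with a ratio of 0.58 (0.19 to 0.98). Mrps30 had 75 and 96, with a ratio of 0.56 (0.11 to 1.02). These 3 ratios lie about the 1.5-fold line, which is 0.58 on the log2 scale and falls between Mrps22 and Mrpl47. Relative to genes of the same height the intervals of all 3 include 0. Mrps15, a conserved small subunit protein, had 24 and 35 fragments, past 1.5-fold but with an interval that includes the median gene (0.75, −0.040 to 1.56). Relative to genes of the same height its ratio was 0.87 (0.076 to 1.68), an interval that lies above 0.

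The lowest ratios rest on small pileups. Mrpl38, of the central protuberance, had 35 and 17 fragments, a ratio of −0.84 (−1.76 to 0.039). Mrps6, a conserved small subunit protein, had 38 and 21, a ratio of −0.65 (−1.49 to 0.16). Mrpl22 had a ratio of −1.07 (−2.59 to 0.27) at its far end. All 3 intervals include the median coding gene. Just inside the 1.5-fold line lay Mrpl33 (−0.58) and Mrpl23 (31 and 18 fragments, −0.58).

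**Figure D3:**
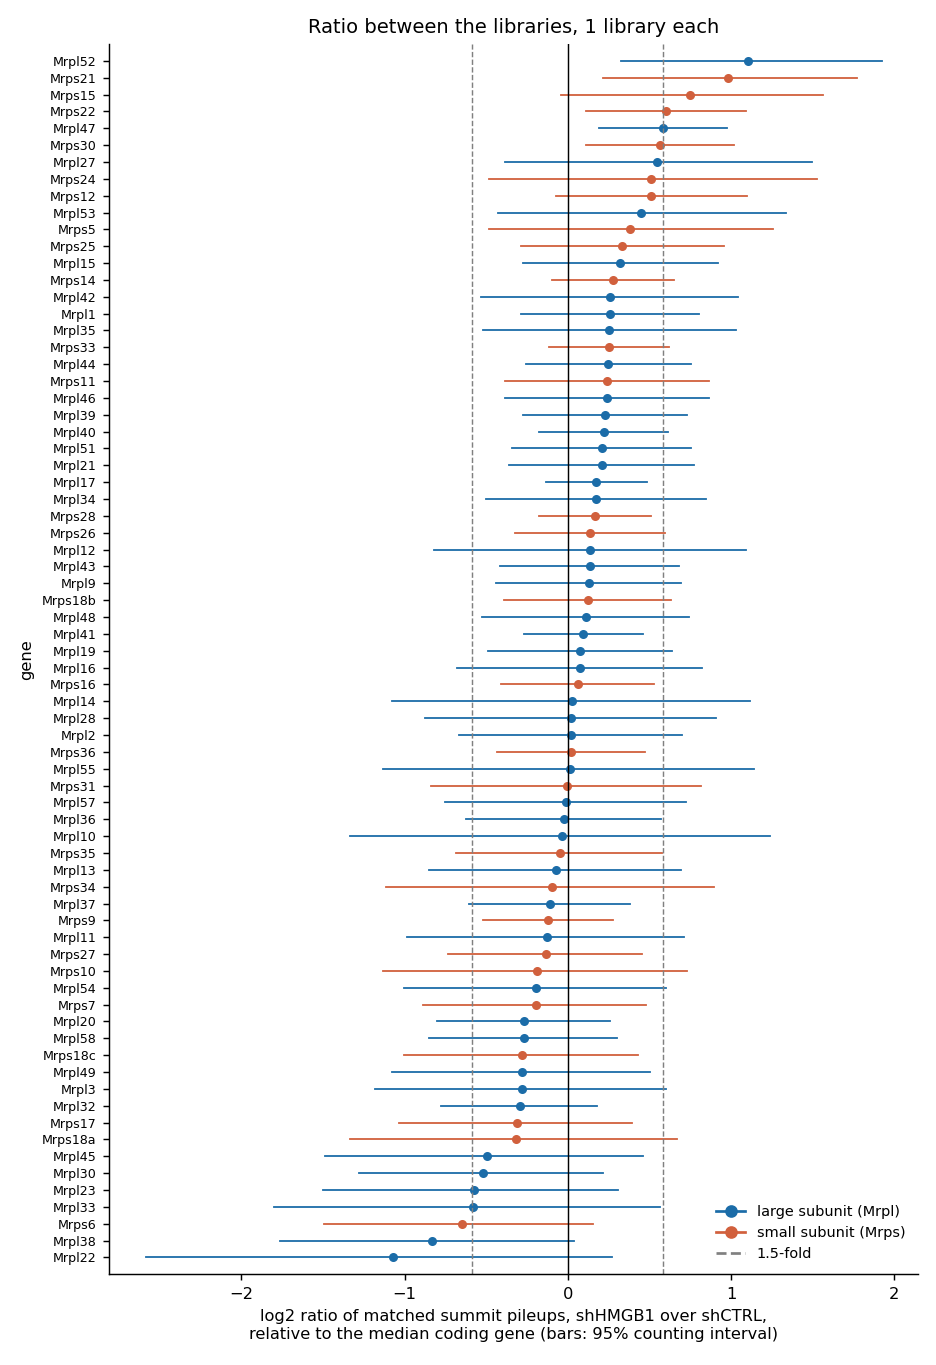
Log2 ratio of matched summit pileups, shHMGB1 over shCTRL, relative to the median coding gene (horizontal axis), for each of 72 mitochondrial ribosomal protein genes (vertical axis), with bars for the 95% counting interval and dashed lines at 1.5-fold. Points run from −1.07 (Mrpl22) to 1.10 (Mrpl52), and the bar lies clear of 0 at 5 genes, all above it.

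Of the 78 genes 6 did not have an open end in both libraries, and for 5 of them a listed summit lay inside the gene. Mrpl18 was counted as open in shCTRL alone (background 5.79% of coding genes), from a summit of 15 fragments 891 bp from its end, while the nearest summit in shHMGB1, of 27 fragments, lay 1011 bp away, just outside the window. Mrps23 was counted in shHMGB1 alone (background 1.73%), from a summit of 10 fragments 243 bp from its end. Mrpl4, Mrpl24, Mrpl50 and Mrps2 had none in either library (background 40.5%). The nearest summit of Mrpl24 lay 1376 and 1346 bp from an end, that of Mrps2 2081 and 2009 bp, and that of Mrpl4 1615 and 1598 bp, with 19 and 10 fragments. In these genes the outer annotated end is not where the open site lies.

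Measured at the start sites of the promoter table, all but 1 of the genes were open. Of 69 members 68 (98.6%) had a summit within 1 kb of a start in both libraries, against 53.1% of 17492 coding genes, with medians of 42.5 and 38 fragments beside 46 and 39 for all. This comparison was added after the values at gene ends were seen. Mrpl18, of the central protuberance, became the highest of all members, with 194 fragments in shCTRL (167.7 to 223.3) and 234 in shHMGB1 (205.0 to 266.0), a ratio of 0.47 (0.19 to 0.75). Its summits lay 124 and 134 bases before its start, between it and the start of Tcp1, 238 bp away in the other direction, so the peak cannot be assigned to one of these genes. Mrps23 had 41 and 40 fragments at its start, Mrpl22 31 and 30, and Mrps2 25 and 16. The far-end values given above for Mrpl22 thus did not reflect its start, where the libraries differed by 1 fragment.

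**Figure D4:**
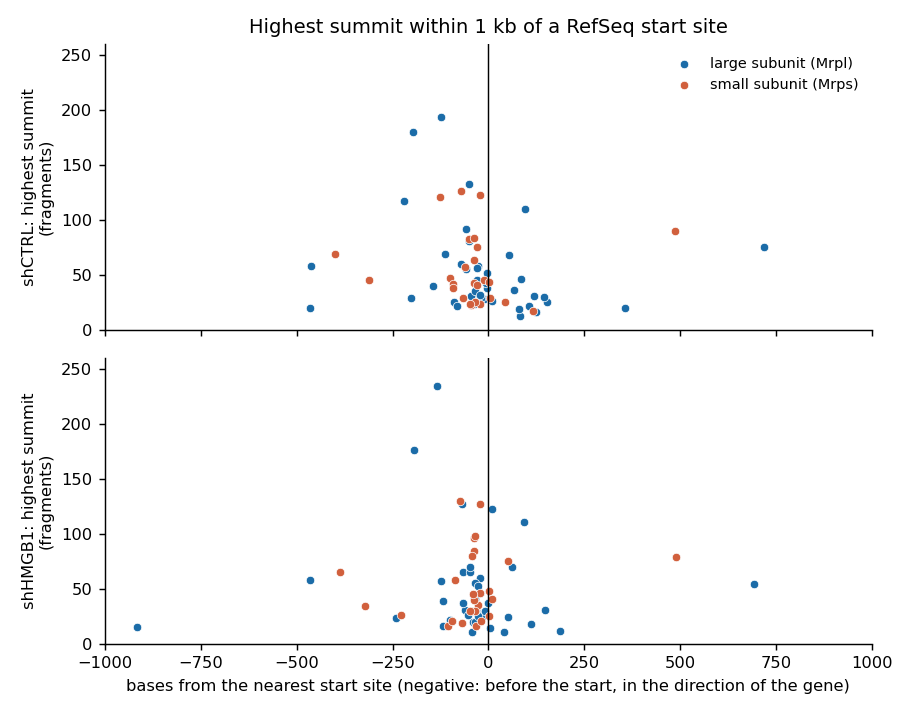
Highest summit within 1 kb of a start site (vertical axis, fragments) against its distance from that start (horizontal axis, bases, negative before the start) for 68 mitochondrial ribosomal protein genes, shCTRL above and shHMGB1 below, blue for the large and orange for the small subunit. Most points lie within 150 bases of the start in both panels, and the highest is Mrpl18 (194 and 234 fragments).

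The start sites also changed which genes stood farthest from the median. A ratio at least 1.5-fold higher was found at 5 of 68, against 3.84% of coding genes, and one at least 1.5-fold lower at 4, against 8.22%. The interval lay wholly above the median gene at 7, against 6.34%, and wholly below it at 2, against 2.12%. The 2 are Mrpl58 and Mrpl36. Mrpl58, a peptidyl-tRNA hydrolase built into the ribosome that frees stalled chains, had matched start summits of 32 and 11 fragments, a ratio of −1.34 (−2.48 to −0.31). At its other end it had 64 and 46. Mrpl36, a small zinc-binding protein of the large subunit (chromosome 13, 73328503 to 73332178), had 52 and 25 at its start, a ratio of −0.85 (−1.60 to −0.14). At its other end, near Ndufs6, it had 54 and 46. At the far ends the ratios were −0.27 (−0.85 to 0.30) for Mrpl58 and −0.025 (−0.62 to 0.57) for Mrpl36. These intervals overlap those of the starts, and a difference between start and far end was not tested. The 11 fragments of Mrpl58 lie near the smallest pileup listed in shHMGB1, which is 7. Mrpl24, a conserved large subunit protein of the tunnel exit, had 24 and 37 fragments at its start, a ratio of 0.83 (0.046 to 1.63).

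Mrpl50 was the single member without a summit at its start in either library. It encodes a mitochondrion-specific large subunit protein and lies on chromosome 4 from 49512597 to 49521083, on the minus strand, 93 bp from the divergent start of Zfp189. The nearest summit lay 167718 bp away in shCTRL, with 16 fragments, and 757107 bp away in shHMGB1, with 7. In shCTRL no summit was listed for 789876 bp, from 48898924 to 49688801, a stretch that holds 10 coding genes. In shHMGB1 the stretch without a summit ran for 2809086 bp, from 48755490 to 51564577, with 12 coding genes. Both stretches hold Zfp189 and Rnf20, a ubiquitin ligase for histone H2B. Mrpl50 thus shared its lack of listed peaks with the genes beside it, among them genes that, like Rnf20, are active in most cell types. Its promoter, printed above, holds letters searched for the ZNF143 and NFY factors.

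Many of the genes share their promoter region with a neighbour. Another coding gene had an end within 1 kb of 44 of 78 members (56.4%), against 24.8% of coding genes. The share was 60% in the list of mitochondrial tRNA synthetases, 63.0% for assembly factors of the mitochondrial ribosome and 50% for mitochondrial translation factors. With strand known, 24 of 69 members (34.8%) had the start of a divergent coding gene within 1 kb, against 8.48% of 17492. So did 8 of 64 cytosolic ribosomal protein genes (12.5%), 6 of 16 genes of the synthetase list (37.5%), 5 of 21 assembly factors (23.8%) and 2 of 12 translation factors (16.7%). Among the members the gap between the starts had a median of 136 bp and was within 200 bp in 16 of 24. It ranged from 32 bp (Mrpl21 and Ighmbp2) to 935 bp (Mrpl41 and Pnpla7). An open site in such a gap cannot be assigned to one gene.

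The pairs named here were chosen for what their partners do, after the list was seen, and stand for no class of partner. Mrpl46, of the central protuberance, and Mrps11, of the small subunit platform, start 42 bp apart and share summits of 45 and 46 fragments. Mrps12, of the decoding centre, lies 147 bp from Sars2, the mitochondrial seryl-tRNA synthetase. Mrpl43 lies 116 bp from Twnk, the helicase of mitochondrial DNA replication. Mrpl47 lies 308 bp from Ndufb5, of respiratory complex I, and Mrps27 lies 108 bp from Ptcd2, a mitochondrial RNA-binding protein. Mrpl40 lies 113 bp from Hira, a histone chaperone, Mrpl32 lies 205 bp from Psma2, of the proteasome, and Mrpl49 lies 192 bp from Fau, which encodes a protein of the cytosolic ribosome.

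Members with a divergent partner had higher medians than those without, as all coding genes with one did. The 23 of 24 that were open had medians of 47 fragments in shCTRL and 46 in shHMGB1, and the 45 of 45 without a partner 32 and 31. Over all coding genes the medians were 56 and 50 with a partner and 44 and 38 without. The median log2 ratios of the 2 member classes were 0.13 and 0.12. None of the 23 genes with a partner passed 1.5-fold in either direction, and the 5 higher and 4 lower genes were all among the 45 without one. Over all coding genes with a partner 3.66% were higher and 4.16% lower, against 3.87% and 8.95% without one.

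Nucleosome-free regions, short intervals that the submitters listed as low in nucleosomes, were found within 1 kb of an end at 49 of 78 members in shCTRL (62.8%, against 28.2% of coding genes) and at 37 in shHMGB1 (47.4%, against 25.4%). In 25 they were listed in both libraries, against 18.7% of coding genes, and in 24 of these the regions overlapped. In 24 they were listed in shCTRL alone, against 9.54%, in 12 in shHMGB1 alone, against 6.71%, and in 17 in neither, against 65.1%. The cytosolic ribosomal protein genes had one at 43 of 84 in each library. The difference between the libraries was in the same direction in large subunit genes, with 30 of 49 and 23 of 49, and in small subunit genes, with 19 of 29 and 14 of 29. It was not tested, since each library is a single one, and the whole lists differ in the same direction, with 16275 and 14634 regions.

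Median pileups differed between these classes. Members with a region in both libraries had median pileups of 68 and 65 fragments, those with one in shCTRL alone 41.5 and 32.5, those with one in shHMGB1 alone 33.5 and 41, and those with neither 26.5 and 20.5. In each of these classes more members were higher in shCTRL than in shHMGB1. The counts were 16 against 8 with a region in both and 16 against 6 with one in shCTRL alone. They were 7 against 5 with one in shHMGB1 alone and 9 against 2 with neither. These pileups are on the separate scale of each library, and the median coding gene was also lower in shHMGB1, at 0.867 times its shCTRL pileup. In the same order, the median log2 ratios relative to the median gene were 0.17, 0.11, 0.10 and −0.28. The regions were of usual size, with a median width of 171 bp in shCTRL and 185 bp in shHMGB1, against 185 and 184 bp over all coding genes. Their median mean nucleosome occupancy was 0.0548 and 0.0587, against 0.0593 and 0.0536 over all coding genes, on a scale from 0 to 1. No region in either list has a mean occupancy above 0.1, so low values are a property of the lists. The widest were those of Mrps6, with 836 bp in shCTRL and none listed in shHMGB1, of Mrpl41, with 819 bp in shCTRL and 413 bp in shHMGB1, and of Mrpl14, with 603 bp in shCTRL and none listed in shHMGB1. At Mrpl52 the region listed in shHMGB1 was 138 bp wide, and at Mrps21 it was 293 bp wide.

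**Figure D5:**
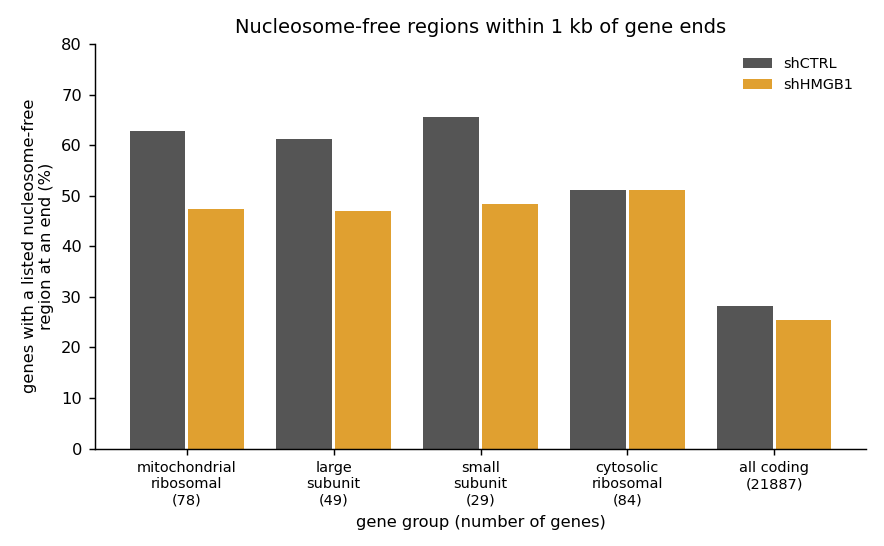
Share of genes (percent, vertical axis) with a listed nucleosome-free region within 1 kb of an end, in shCTRL (grey) and shHMGB1 (orange), for mitochondrial ribosomal protein genes, their 2 subunits, cytosolic ribosomal protein genes and all coding genes (horizontal axis, number of genes in brackets). The mitochondrial bars are 62.8% and 47.4%, against 28.2% and 25.4% over all coding genes.

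The other genes of mitochondrial translation were open as widely. Of 5 mitochondrial ribosomal proteins with other names 4 were open in both libraries. Aurkaip1 had 108 and 86 fragments, Dap3, a GTP-binding small subunit protein also known from cell death, 34 and 21, Ptcd3 31 and 21, and Chchd1 14 and 16. Gadd45gip1 had 19 fragments in shCTRL and no listed end summit in shHMGB1 (background 5.79% of coding genes). The ratios of the 4 open genes had a median of −0.24, and none of the 4 intervals excluded the median coding gene.

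Factors that assemble the ribosome were open in 27 of 27 cases, with medians of 48 and 42 fragments and a median ratio of 0.12. The highest were Tfb1m, which methylates the small ribosomal RNA, with 228 and 241 fragments, and Mettl17 with 111 and 118. Translation factors were open in 13 of 14 cases, with medians of 45 and 40 and a median ratio of 0.10. The exception was Mtif2, the initiation factor that places the first tRNA, with 28 fragments in shCTRL and none listed in shHMGB1 (background 5.79% of coding genes). A summit just outside the window, as at Mrpl18, would not be counted. Among them Mtrf1l, a release factor, had 133 and 104, and Taco1, an activator of cytochrome oxidase translation, 96 and 32 at matched summits, a ratio of −1.38 (−2.00 to −0.79).

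The mitochondrial tRNA synthetases and the subunits of the glutaminyl-tRNA amidotransferase were open in 19 of 20 cases, with medians of 50 and 55 fragments and a median ratio of 0.0094. The exception was Aars2, with no listed end summit in either library (background 40.5% of coding genes). The highest were Lars2, for leucine, with 270 and 152 fragments and a ratio of −0.62 (−0.92 to −0.33), and Ears2, for glutamate, with 120 and 126. Of these 4 lists, 4 assembly factors were at least 1.5-fold higher and 1 lower, 1 translation factor and 2 synthetase list genes were lower, and no other gene passed that line. Over all coding genes 4.09% were higher and 8.52% lower. The interval lay wholly above the median coding gene at 3 assembly factors, against 5.98% of coding genes. These were Fastkd2, with 17 and 29 fragments and a ratio of 0.98 (0.065 to 1.93), Mpv17l2, with 70 and 99 and a ratio of 0.71 (0.25 to 1.17), and Tfb1m, with 228 and 241 and a ratio of 0.29 (0.019 to 0.55). The intervals of Taco1 and Lars2 lay wholly below it, against 2.17% of coding genes. The interval of no mitochondrial ribosomal protein gene did so at its ends, while those of Mrpl58 and Mrpl36 did so at their starts.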

How the data were processed

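1 ATAC-seq library of shCTRL and 1 of shHMGB1 AB22 cells were used, grouped by the silencing label. The submitters' processing notes name Trimmomatic 0.32, BWA 0.7.5-r404, SAMtools, bedtools and MACS2, and the build mm10 (GRCm38). Their settings, any shift for Tn5 and the program behind the nucleosome-free regions are not given in the sources used here. Deposited lists of peaks, 1 per library, give for each summit a fold (a ratio of pileup to expected pileup), −log10 p and −log10 q, and a deposited score that is the whole part of 10 times −log10 q. In the deposited nucleosome-free regions, column 4 was read from the layout as a fraction (mean occupancy) and columns 6 and 7 as signal (insertion and bias densities), which no header states.

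The fold was read as (pileup + 1)/(expected + 1), and all 180632 and 156812 summits came out as whole units, taken as fragments, within 0.001. The 194 and 155 summits without a position were placed at the middle of their interval. Summits within 1 kb of either end of a gene in the RefSeq table were its end summits, and the tallest pair within 150 bp was matched. Pileups have exact Poisson and ratios conditional binomial (Clopper-Pearson) 95% intervals. These cover counting error only, as no molecular identifiers were used to tell copies of a fragment apart. Python 3.11.15, NumPy 2.4.6, pandas 2.3.3 and SciPy 1.17.1 were used, and the scripts were tested on simulated data. All 146 genes of the lists matched the table.

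Named genes were the members open in 1 library or none, the 5 highest and 4 lowest large and 4 highest and 4 lowest small subunit genes by summed pileup, members past 1.5-fold whose interval excluded the median, the 5 subunits with other names, the 3 widest nucleosome-free regions, and, in other lists, the 2 highest genes and those open in 1 library. Further genes, among them Mrps15, Mrps30, Mrpl38, Mrps6, Mrpl36, Mrpl58, Mrpl23, Aars2, Fastkd2, Mpv17l2, the stalk genes and the divergent pairs, and the start-site comparison were chosen after their values were seen. The members and lists were chosen with earlier results of these data known. Alternatives varied the window, the q minimum, the matching distance and the scaling.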

Additional observations from a re-analysis of the deposited data

How the results depend on the processing

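The count of members open in both libraries (72, against 52% of coding genes) stayed between 61 and 77 over 6 alternatives. The 61 came with a −log10 q of at least 10, against 40.4% of coding genes. The 77 came over the whole gene with 1 kb around it, against 64.7%, so the background moved with the count. The count with a nucleosome-free region in both (25) stayed between 21 and 26 over 3 alternatives, and the median height between 42 and 47 fragments over 6. The 2 members open in exactly 1 library became 1 with a window of 2000 bp, 6 with a −log10 q of at least 10, and 0 over the whole gene with 1 kb around it or at start sites. The median log2 ratio (0.075) became 0.60 when scaled to the expected pileup of each library, by which the median coding gene itself lies at 0.52, and 0.12 at start sites. With that first scaling 37 members in place of 4 were at least 1.5-fold higher, against 43.2% of coding genes. In place of 3, 0 were lower, against 0.719%. The lower count was 5 with a window of 2000 bp, with summits matched within 50 bp and over the whole gene, against 8.68%, 8.83% and 8.74%. The difference between the subunits' medians (−0.047) became 0.11 with summits matched within 50 bp and 0.079 when scaled to genes in the same decile of height, so it has no settled sign. The cause of these shifts was not tested. The last 3 alternatives used above (whole gene, same chromosome, start sites) and the highest unmatched summit were added after seeing the data. No paired analysis was possible because each group has 1 library. Pileups near 10 fragments allow no finer statement than the intervals given, read depth is unknown, and copy number, mappability and local background were not measured.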

Other observations

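Peaks inside the genes, outside the windows at their ends, were listed at 24 of 78 mitochondrial ribosomal protein genes in shCTRL (48 peaks) and at 23 in shHMGB1 (41 peaks). Over all coding genes the shares were 44.7% and 42.5%, and these genes are longer, with a median length of 17169 bp against 7690.5 bp for the members. The highest of these that is not at a start site was in Mrps27, a small subunit protein with repeats that bind RNA, with 127 fragments in shCTRL and 106 in shHMGB1. Mrps28 held 6 such peaks in each library, the highest with 79 and 92 fragments. Mrps10 held a peak of 58 and 60 fragments, above the 25 and 19 of its own ends. Mrpl48, of the central protuberance, held 3 in each library, with up to 33 and 28 fragments.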
